A study of Mus musculus with 12 samples.

Results

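The genes described here encode the enzymes that remove superoxide and peroxides in mouse cells: the superoxide dismutases Sod1, Sod2 and Sod3, catalase (Cat), and the glutathione peroxidases Gpx1, Gpx3, Gpx4, Gpx7 and Gpx8. They were chosen by symbol, as 9 genes of the 24458 in the deposited expression table, and all 9 had enough reads to be tested. The RNA came from mouse embryonic fibroblasts (MEFs), a culture of connective tissue cells prepared from embryos, and was sequenced in 12 libraries. Of these, 4 came from cells in control medium, called untreated here, 4 from cells given the plant flavone apigenin at 50 µM, and 4 from cells given the flavone chrysin at 50 µM, each for 24 h. Chrysin lacks a hydroxyl group that apigenin carries on its B ring. No source used here says whether solvent was added to the control medium, what strain the embryos came from, or whether the 4 libraries of a group came from separate cultures. Changes against untreated therefore cannot be told apart from an effect of solvent, and p-values measure the spread between these libraries, which may be technical.

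Superoxide dismutases turn superoxide into hydrogen peroxide. The copper and zinc enzyme SOD1 works mainly in the cytosol, the manganese enzyme SOD2 in the mitochondrial matrix, and the copper and zinc enzyme SOD3 is secreted and binds the extracellular matrix. Catalase breaks down hydrogen peroxide in peroxisomes. Glutathione peroxidases reduce peroxides with electrons from glutathione or other thiols: GPX1 is the main cytosolic form, GPX3 is secreted, GPX4 reduces lipid hydroperoxides in membranes, and GPX7 and GPX8 reside in the endoplasmic reticulum. In mouse GPX1, GPX3 and GPX4 the catalytic residue is selenocysteine, which is encoded by a codon that otherwise ends translation, whereas GPX7 and GPX8 use cysteine there.

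That difference can be read in the coding sequences. The stretches below are shown because they divide the 5 glutathione peroxidases into selenium-dependent and selenium-independent genes, a division used in the results. Each is the catalytic codon, in capitals, with 15 bases on either side, 5′ to 3′ on the coding strand, taken from the longest coding transcript of the GENCODE vM1 annotation of mm9.
Gpx1: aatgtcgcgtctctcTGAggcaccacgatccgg
Gpx3: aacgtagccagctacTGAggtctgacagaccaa
Gpx4: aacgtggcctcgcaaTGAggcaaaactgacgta
Gpx7: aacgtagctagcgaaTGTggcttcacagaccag
Gpx8: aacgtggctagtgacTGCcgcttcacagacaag
The in-frame TGA was codon 47 of 201 in Gpx1 (plus strand, chr9:108241782-108241784), codon 73 of 226 in Gpx3 (plus strand, chr11:54720758-54720760) and codon 129 of 253 in Gpx4 (plus strand, chr10:79517482-79517484). The aligned cysteine codon was number 56 of 186 in Gpx7 (minus strand, chr4:108076035-108076037) and number 79 of 209 in Gpx8 (minus strand, chr13:113835869-113835871). All 5 stretches lie within a single coding exon. Gpx3, Gpx4 and Gpx7 have 3, 2 and 2 annotated coding transcripts, and their codon numbers hold for the longest.

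On the same build, Gpx1 spans chr9:108241607-108242671, Gpx3 chr11:54715955-54723879, Gpx4 chr10:79509911-79519184, Gpx7 chr4:108072995-108079566 and Gpx8 chr13:113832971-113836596. Sod1 spans chr16:90220987-90226567, Sod2 chr17:13200705-13210985 and Sod3 chr5:52755185-52762644, all on the plus strand, and Cat spans chr2:103294006-103325317 on the minus strand. Gpx8 lies within the bounds of Cdc20b, a gene on the opposite strand, with no shared exon sequence. The other 8 genes overlap no annotated gene.

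Values are log2 of a normalized read count plus 1, and differences are differences of these log2 values with their standard error. Reads recovered per library ranged from 4298640 to 15512635, and a member held between 45 reads (Gpx7 in chrysin replicate 2) and 6659 reads (Cat in apigenin replicate 3). A gene was called changed at an adjusted p under 0.05 in limma, over 12198 genes. On the first principal component of all genes (43.8% of the variance) apigenin replicates 1 and 3 (-4.78, -7.16) stood apart from apigenin replicates 2 and 4 (38.7, 42.3). Scores of untreated libraries were -61 to -55.2 on that component, and those of chrysin libraries 35.2 to 43.2. The libraries given apigenin thus form 2 pairs. The pairs differed most in Cat, Gpx1 and Gpx3, and the values with each pair alone are given for these. In Sod1, Gpx7 and Gpx8 the pairs also did not overlap but lay closer together. For Gpx7 and Gpx8 the values with each pair are given against untreated only. The pairs were chosen after this division was seen, and an adjusted p with 1 pair alone leaves out the spread between the pairs. All 12 fibroblast markers were measured, and their summed normalized count was 243440 to 258690 untreated, 165330 to 187874 with apigenin and 199665 to 253807 with chrysin. Of these 12 markers 10 were called lower and 1 higher with apigenin, where 23.2% and 23% of all genes tested were. With chrysin 8 were called lower and 1 higher, where 26.7% and 26.3% of all genes tested were. No gene of 7 epithelial markers reached the level needed for testing, with at most 19 reads in any library. The summed normalized count of 7 macrophage and leukocyte markers was 1029 to 1176 untreated, 1535 to 1957 with apigenin and 877 to 1008 with chrysin, and of 6 endothelial markers 79.8 to 95.7, 16.3 to 27.7 and 29.1 to 65.3. Muscle markers summed to 12.1 to 38.8, 13.5 to 40.2 and 44.5 to 91.6, and neural markers to 3515 to 4055, 1265 to 1637 and 2339 to 2712. Single genes carry some of these sums. Map2, at a mean level of 11.64 untreated, leads the neural sum and fell with both flavones, whereas Nes rose with both (0.57 ± 0.15 and 1.36 ± 0.15). Cd68 (1.46 ± 0.11) leads the rise of the macrophage sum with apigenin. Of 6 tested macrophage genes 2 rose and 0 fell with apigenin, and 0 rose and 2 fell with chrysin. These counts stand beside the shares of all genes tested given above. Of these marker lists only the epithelial one held a gene at 0 in every library. The part of these shifts in the results below was not tested, and in cultured cells measured in bulk, fewer cells of a type and less RNA per cell cannot be told apart.

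Levels were first compared between genes per kilobase of the longest coding transcript. In untreated cells Sod1 had the highest normalized count per kilobase, at 2483 ± 229.7 (SD, n = 4), followed by Gpx1 at 2278 ± 107. Gpx4 stood at 1591 ± 109 and Gpx8 at 1242 ± 109, and Cat at 979 ± 58.4. The remaining genes were much lower: Gpx3 at 370.4 ± 74.6, Sod3 at 277 ± 11, Gpx7 at 176 ± 28.7 and Sod2 at 141 ± 13. These levels depend on the annotated length. Over all annotated exons (1675 bases), Gpx4 stood at 888 to 1019 in untreated libraries, below every Gpx8 library and overlapping Cat, at 930.4 to 1064. The single annotated Sod2 transcript has 3824 bases of which 666 are coding.

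**Figure D1:**
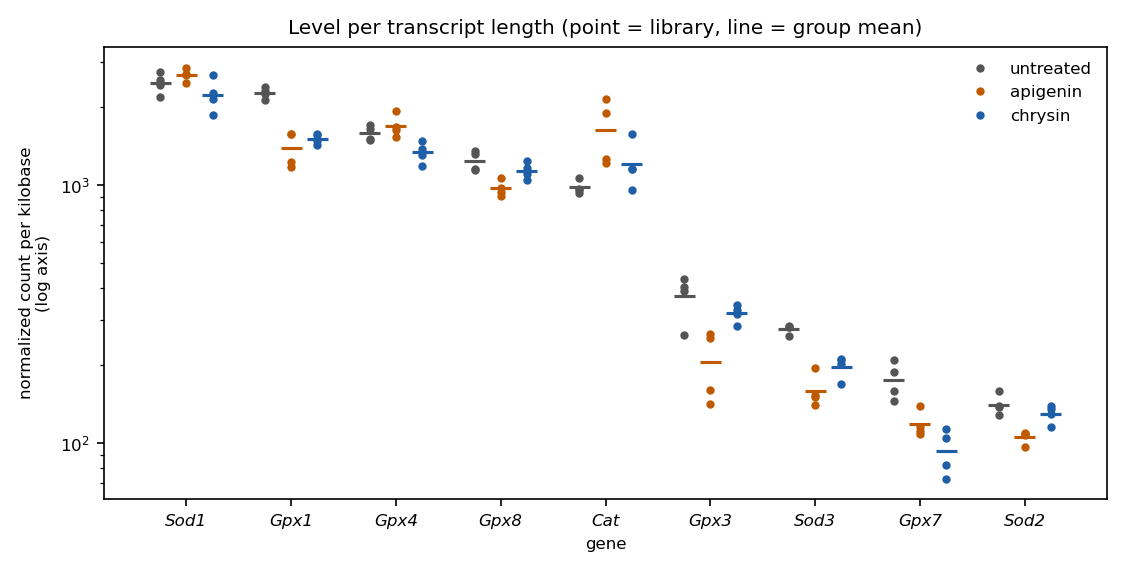
Normalized count per kilobase of the longest coding transcript (log axis) for each gene, ordered by its untreated mean, with a point per library and a line at each group mean. Sod1 and Gpx1 lead in untreated cells at 2483 and 2278, and Sod2 is lowest at 141.

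The remaining glutathione peroxidase genes had next to no reads. Gpx2 and Gpx5 had 0 reads in all 12 libraries and Gpx6 had 1 read in 1 library. A count of 0 allows up to 3 reads, which is a normalized count of 1.44 in the deepest library and 6.24 in the shallowest, for counting error only.

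The first comparison addressed what apigenin changed. With apigenin, Sod3, Sod2, Gpx1, Gpx3, Gpx7 and Gpx8 fell, catalase rose, and Sod1 and Gpx4 were not called. Of the 9 genes 7 were called in either direction, where 46.2% of all genes tested were. Of these, 6 were called lower, where 23.2% of all genes tested were, and 1 was called higher, where 23% were. Groups did not overlap in 6 of 9 genes, where 45.1% of all genes tested did not overlap. The median difference of the 9 genes was -0.42, beside 0.01 over all genes tested. No member changed by 1 or more on the log2 scale, a size that 14.8% of all genes tested passed with a call.

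**Figure D2:**
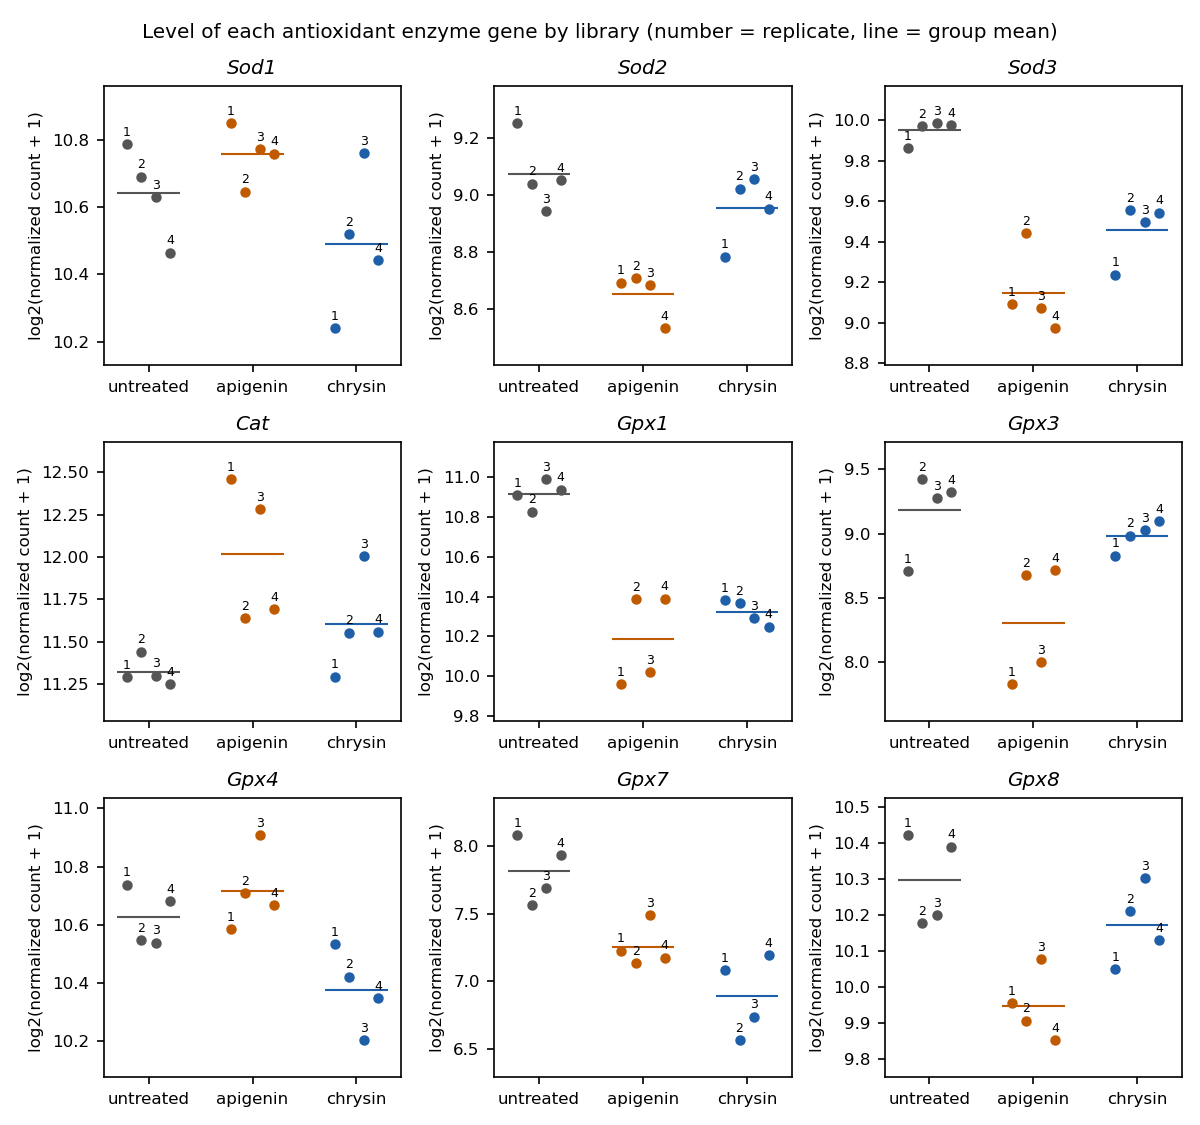
Level of each gene in log2 of the normalized count plus 1, with a point per library marked by its replicate number and a line at each group mean; each panel has its own vertical range, which does not start at 0. Gpx1 and Sod3 in treated libraries lie below all 4 untreated libraries, and the apigenin values of Cat, Gpx1 and Gpx3 divide into replicates 1 and 3 and replicates 2 and 4.

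Among the dismutases, the secreted Sod3 fell most. Its level was 9.86, 9.97, 9.99 and 9.98 in untreated replicates 1 to 4, and 9.09, 9.44, 9.07 and 8.97 in apigenin replicates 1 to 4. Every apigenin library lay below every untreated one. The difference was -0.8 ± 0.11, a 1.75-fold lower level (adjusted p = 1.67e-05, n = 4 per group).

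The mitochondrial Sod2 stood at 9.25, 9.04, 8.94 and 9.05 untreated and at 8.69, 8.71, 8.68 and 8.53 with apigenin. These groups also did not overlap, and the apigenin values were close to each other. The difference was -0.42 ± 0.1, a 1.34-fold lower level (adjusted p = 0.00338). The cytosolic Sod1 stood at 10.79, 10.69, 10.63 and 10.46 untreated and at 10.85, 10.65, 10.77 and 10.76 with apigenin. These groups overlapped, with a difference of 0.11 ± 0.1 (95% CI -0.11 to 0.33, adjusted p = 0.389).

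Catalase was the gene that rose. Its level was 11.29, 11.44, 11.3 and 11.25 untreated and 12.46, 11.64, 12.28 and 11.69 in apigenin replicates 1 to 4. All apigenin libraries lay above all untreated ones, but replicates 1 and 3 stood well above replicates 2 and 4. The difference was 0.7 ± 0.18, a 1.62-fold rise (adjusted p = 0.00586). With apigenin replicates 1 and 3 only it was 1.05 ± 0.13 (adjusted p = 1.34e-06), and with replicates 2 and 4 only 0.35 ± 0.13 (adjusted p = 0.0299), a choice made after the division of these libraries was seen.

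Among the selenium-dependent glutathione peroxidases, Gpx1 and Gpx3 fell and Gpx4 was not called. Gpx1 stood at 10.91, 10.83, 10.99 and 10.94 untreated and at 9.96, 10.39, 10.02 and 10.39 with apigenin. The groups were far apart, and here replicates 1 and 3 were the lower pair. The difference was -0.72 ± 0.1, a 1.65-fold lower level (adjusted p = 2.09e-05). It was -0.92 ± 0.09 with apigenin replicates 1 and 3 only (adjusted p = 3.65e-08) and -0.53 ± 0.09 with replicates 2 and 4 only (adjusted p = 3.5e-05).

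Gpx3, the secreted form, stood at 8.71, 9.42, 9.28 and 9.32 untreated and at 7.83, 8.68, 8 and 8.72 with apigenin. Apigenin replicate 4 reached the level of untreated replicate 1, the lowest untreated library, so the groups overlapped. The difference was -0.88 ± 0.19 (adjusted p = 0.00169), and it was -1.27 ± 0.16 with apigenin replicates 1 and 3 only (adjusted p = 7.13e-07) and -0.49 ± 0.15 with replicates 2 and 4 only (adjusted p = 0.0098). Gpx4, the lipid hydroperoxide reductase, stood at 10.74, 10.55, 10.54 and 10.68 untreated and at 10.59, 10.71, 10.91 and 10.67 with apigenin. Its groups overlapped, with a difference of 0.09 ± 0.09 (95% CI -0.11 to 0.29, adjusted p = 0.447).

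Both cysteine enzymes of the endoplasmic reticulum fell. Gpx8 stood at 10.42, 10.18, 10.2 and 10.39 untreated and at 9.95, 9.91, 10.08 and 9.85 with apigenin (-0.35 ± 0.09, adjusted p = 0.00486). With apigenin replicates 1 and 3 only the Gpx8 difference was -0.28 ± 0.11 (adjusted p = 0.0416). With replicates 2 and 4 only it was -0.42 ± 0.1 (adjusted p = 0.00156). Gpx7 stood at 8.08, 7.56, 7.69 and 7.93 untreated and at 7.23, 7.14, 7.49 and 7.18 with apigenin. Neither gene's groups overlapped, although apigenin replicate 3 was close to the lowest untreated library in each. The Gpx7 difference was -0.56 ± 0.17 (adjusted p = 0.0138). Its call ended without untreated replicate 1 (-0.47, adjusted p = 0.0517) and with apigenin replicates 1 and 3 only (-0.46, adjusted p = 0.0836). With replicates 2 and 4 only the Gpx7 difference was -0.66 ± 0.2 (adjusted p = 0.00817).

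The second comparison addressed what chrysin changed, against the same 4 untreated libraries, so that its values are not independent of those for apigenin. With chrysin, Gpx7, Gpx1, Sod3 and Gpx4 fell, and none of the 9 genes was called higher. Of the 9 genes 4 were called in either direction, where 53% of all genes tested were. The 4 called lower compare with 26.7% of all genes tested, and the 0 called higher with 26.3%. Groups did not overlap in 4 genes, where 51.4% of all genes tested did not overlap. The median difference of the 9 genes was -0.2, beside -0.03 over all genes tested. No member changed by 1 or more, a size that 19% of all genes tested passed with a call.

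Gpx7 fell most, from the untreated levels given above to 7.09, 6.56, 6.74 and 7.2 in chrysin replicates 1 to 4. All 4 libraries lay below the untreated ones. The difference was -0.92 ± 0.17, a 1.89-fold lower level (adjusted p = 0.000284). Chrysin replicate 2 held 45 reads of this gene and untreated replicate 4 held 382, so counting error weighs more here than for the other members.

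Gpx1 stood at 10.38, 10.37, 10.29 and 10.25 with chrysin. These 4 values lay within a narrow range, below every untreated value. The difference was -0.59 ± 0.1, a 1.51-fold lower level (adjusted p = 0.000119). Sod3 stood at 9.24, 9.56, 9.5 and 9.54, also below every untreated library (-0.49 ± 0.11, adjusted p = 0.00125).

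Gpx4 stood at 10.53, 10.42, 10.2 and 10.35 with chrysin. The highest chrysin value was just under the lowest untreated one. The difference was -0.25 ± 0.09 (adjusted p = 0.0338). That call ended without untreated replicate 1 (-0.21, adjusted p = 0.0952), untreated replicate 4 (-0.23, adjusted p = 0.0853), chrysin replicate 3 (-0.19, adjusted p = 0.102) or chrysin replicate 4 (-0.24, adjusted p = 0.0712). It also ended with a replicate block (adjusted p = 0.0573), without trend and robust estimation (adjusted p = 0.0636) and with limma-voom on the recovered reads (adjusted p = 0.0518). After quantile normalization the difference was larger, at -0.37 ± 0.1 (adjusted p = 0.00494).

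The other 5 genes were not called with chrysin. Catalase stood at 11.29, 11.55, 12.01 and 11.56, with replicate 3 the highest and replicate 1 among the untreated values (0.28 ± 0.18, 95% CI -0.1 to 0.67, adjusted p = 0.2). It was called when only the 8 libraries of these groups were fitted (0.28 ± 0.11, adjusted p = 0.032). Sod1 stood at 10.24, 10.52, 10.76 and 10.44 (-0.15 ± 0.1, 95% CI -0.37 to 0.07, adjusted p = 0.23). It was called without chrysin replicate 3 (-0.24, adjusted p = 0.048) and after quantile normalization (-0.29, adjusted p = 0.0209).

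Sod2 stood at 8.78, 9.02, 9.05 and 8.95 with chrysin (-0.12 ± 0.1, 95% CI -0.34 to 0.1, adjusted p = 0.354). Gpx3 stood at 8.83, 8.98, 9.02 and 9.1 (-0.2 ± 0.19, 95% CI -0.61 to 0.21, adjusted p = 0.409). Gpx8 stood at 10.05, 10.21, 10.3 and 10.13 (-0.12 ± 0.09, 95% CI -0.32 to 0.07, adjusted p = 0.265), and was called after quantile normalization (-0.25, adjusted p = 0.0333). In all 3 genes the chrysin libraries overlapped the untreated ones.

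The third comparison set the flavones against each other at the same dose and time, as the only pair of compounds in the study. It is also the test of the difference between their effects, since both share the untreated libraries. Relative to chrysin, apigenin libraries had less Gpx3, Sod3, Sod2 and Gpx8 and more Gpx4 and Sod1, and Cat, Gpx1 and Gpx7 were not called. Of the 9 genes 6 were called in either direction, where 50.7% of all genes tested were. There were 4 called lower and 2 higher, where 26.1% and 24.7% of all genes tested were. Groups did not overlap in 3 genes (Sod2, Gpx3 and Gpx4), where 41% of all genes tested did not overlap. The median difference of the 9 genes was -0.13, beside 0.01 over all genes tested.

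**Figure D3:**
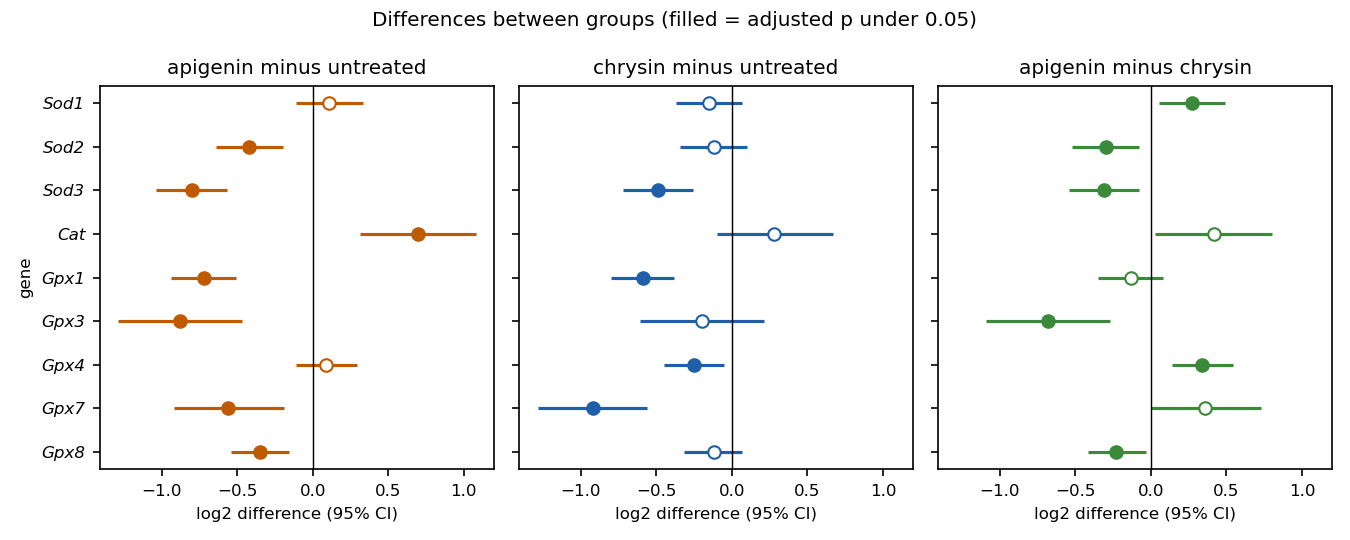
Difference in log2 level between groups for each gene (horizontal axis) in the 3 comparisons, with 95% confidence intervals and with filled points where the adjusted p is under 0.05. Gpx1, Sod3 and Gpx7 are lower than untreated under both flavones, and Gpx4 is higher with apigenin than with chrysin by 0.34.

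Gpx4 was higher with apigenin than with chrysin by 0.34 ± 0.09 (95% CI 0.14 to 0.54, adjusted p = 0.00621). All 4 apigenin libraries lay above all 4 chrysin libraries, and the call held in all 24 alternatives that gave this value. After quantile normalization the Gpx4 difference was 0.57 ± 0.1 (adjusted p = 0.000221). Gpx3 was lower with apigenin by -0.68 ± 0.19 (95% CI -1.09 to -0.27, adjusted p = 0.00852), and its groups did not overlap either. With apigenin replicates 1 and 3 only this difference was -1.07 ± 0.16 (adjusted p = 5.25e-06), and with replicates 2 and 4 only -0.29 ± 0.15 (adjusted p = 0.117), where the call ended.

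The other calls between the flavones were weaker. Sod2 was lower with apigenin by -0.3 ± 0.1 (adjusted p = 0.0236), a call that ended without apigenin replicate 4, chrysin replicate 2 or chrysin replicate 3 (adjusted p = 0.0692, 0.0585 and 0.0568). Sod3 was lower by -0.31 ± 0.11 (adjusted p = 0.0247), a call that ended without apigenin replicate 3, apigenin replicate 4, chrysin replicate 2 or chrysin replicate 4 (adjusted p = 0.0557, 0.0771, 0.0701 and 0.0667). Other settings ended these calls too. Of the 24 alternatives 19 kept the Sod2 call, with differences from -0.36 to -0.25 (highest adjusted p = 0.0727). The Sod3 call held in 16 of 24, with differences from -0.41 to -0.21 (highest adjusted p = 0.117). The Sod3 values of the 2 flavones overlapped, through apigenin replicate 2 at 9.44 and chrysin replicate 1 at 9.24.

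Sod1 was higher with apigenin by 0.27 ± 0.1 (adjusted p = 0.0415), with chrysin replicate 3 among the apigenin values. This call ended without untreated replicates 2 or 3, apigenin replicates 1, 3 or 4, or chrysin replicates 1, 2 or 4 (adjusted p = 0.0533 to 0.134), with the lowest value, 0.18, without chrysin replicate 1. After quantile normalization the Sod1 difference was larger, at 0.51 ± 0.1 (adjusted p = 0.000528). In all, 10 of 24 alternatives kept the Sod1 call. Gpx8 was lower by -0.23 ± 0.09 (adjusted p = 0.0494), and its groups met at apigenin replicate 3 (10.08) and chrysin replicate 1 (10.05). Only 7 of 24 alternatives kept the Gpx8 call. That call ended without untreated replicates 2, 3 or 4, apigenin replicates 1, 2 or 4, or chrysin replicates 2, 3 or 4 (adjusted p = 0.0564 to 0.124), and after quantile normalization the difference was -0.06 (adjusted p = 0.593).

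No call was made for 3 genes. Catalase differed by 0.42 ± 0.18 (95% CI 0.03 to 0.8 before adjustment, adjusted p = 0.0677), and was called without apigenin replicate 2, apigenin replicate 4 or chrysin replicate 3 (adjusted p = 0.0188, 0.0267 and 0.0186) and after quantile normalization (0.73, adjusted p = 0.00297). The catalase difference was 0.77 ± 0.13 with apigenin replicates 1 and 3 only (adjusted p = 4.72e-05) and 0.06 ± 0.13 with replicates 2 and 4 only (adjusted p = 0.71). Gpx7 differed by 0.36 ± 0.17 (adjusted p = 0.0905), and was called without chrysin replicate 4 (0.46, adjusted p = 0.0465). Gpx1 differed by -0.13 ± 0.1 (95% CI -0.35 to 0.08, adjusted p = 0.286), a sign that turned after quantile normalization (0.07, adjusted p = 0.633) and with apigenin replicates 2 and 4 only (0.07, adjusted p = 0.55). With apigenin replicates 1 and 3 only, a pair chosen after the data were seen, the Gpx1 difference was -0.33 ± 0.09 (adjusted p = 0.00498).

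Set in order of level, Gpx1 and Sod3 ran from untreated to chrysin to apigenin. The neighbours chrysin and apigenin were not called apart for Gpx1 and were for Sod3. Sod2, Gpx3 and Gpx8 had the same order, with untreated and chrysin not called apart. Catalase ran the other way, from apigenin to chrysin to untreated, and neither neighbouring pair was called apart. Sod1 and Gpx4 ran from apigenin to untreated to chrysin, and of their neighbouring pairs only untreated and chrysin for Gpx4 were called apart. Gpx7 ran from untreated to apigenin to chrysin, with apigenin and chrysin not called apart.

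Per kilobase, the glutathione peroxidase transcripts changed in sum and in makeup. Their summed normalized count per kilobase was 5361 to 5870 in untreated libraries, 3951 to 4570 with apigenin and 4302 to 4495 with chrysin. Neither treated range reached the untreated one. Gpx1 gave 39% to 42.8% of that sum in untreated libraries, 27.1% to 35.2% with apigenin and 33.4% to 35% with chrysin. Gpx4 gave 26.7% to 29.6% untreated, 36.3% to 42.7% with apigenin and 27.5% to 33.1% with chrysin. In apigenin libraries the mean share of Gpx4, 38.7%, was above that of Gpx1, 31.6%, but with the length of all annotated exons of each gene the order was the reverse, at 27.5% and 37.8%. Sod1 made up 83.9% to 86.7% of the summed dismutase level untreated, 89.1% to 91.9% with apigenin and 86.4% to 88.7% with chrysin. The sum itself overlapped between all groups. These shares rest on annotated lengths of 646 bases for Sod1, 3824 for Sod2 and 3570 for Sod3. Without division by length, the mean normalized counts untreated were 1604, 538 and 988.

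The cofactor supply of these enzymes was examined through gene lists chosen for their roles. Their counts stand beside the shares of all genes tested that were called higher and lower, 23% and 23.2% with apigenin and 26.3% and 26.7% with chrysin. For copper, which SOD1 and SOD3 need, 2 of 6 tested genes rose and 1 fell with each flavone. Atp7a, the ATPase that pumps copper into the secretory pathway, rose with apigenin (0.58 ± 0.12, adjusted p = 0.000721) and chrysin (0.63 ± 0.12, adjusted p = 0.000261). Slc31a2, a copper transporter related to the importer Slc31a1, fell with both (-0.75 ± 0.18 and -0.98 ± 0.18). Cox17, a mitochondrial copper chaperone, rose with apigenin (0.49 ± 0.15), and Slc31a1 rose with chrysin (0.46 ± 0.1) and was lower with apigenin than with chrysin (-0.26 ± 0.1). Atox1, a cytosolic copper chaperone, was higher with apigenin than with chrysin (0.55 ± 0.16). Ccs, which loads copper onto SOD1, was not called with either flavone (0.09 and -0.01).

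In the list for SOD2, of manganese supply and mitochondrial genes, 4 of 5 tested genes rose with apigenin and 1 with chrysin, and 0 fell. One of the risers with apigenin, Sirt3, encodes a mitochondrial deacetylase and no transporter (1.06 ± 0.34). Its mean level was low, at 4.05 untreated and 5.11 with apigenin. Slc39a14, a metal importer that carries manganese, rose with both (0.98 ± 0.19 and 0.87 ± 0.19). The related importer Slc39a8 rose with apigenin (1.14 ± 0.18, adjusted p = 5.62e-05) and was higher with apigenin than with chrysin (1.37 ± 0.18, adjusted p = 7.38e-06). Slc25a39, a mitochondrial carrier needed for glutathione import, rose with apigenin (0.85 ± 0.12) and differed between the flavones (0.67 ± 0.12).

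Genes that build glutathione and supply NADPH, on which glutathione peroxidases depend, were called higher in 7 of 12 and lower in 4 of 12 with apigenin, and in 6 and 3 with chrysin. The cystine transporter Slc7a11 rose by 3.95 ± 0.11 with apigenin and 3.52 ± 0.11 with chrysin. The glutamate-cysteine ligase subunits Gclc (2.42 ± 0.09 and 1.97 ± 0.09) and Gclm (2.17 ± 0.12 and 2.14 ± 0.12) rose with both. G6pdx and Pgd, which make NADPH in the pentose phosphate pathway, were higher with apigenin than with chrysin (1 ± 0.14 and 0.77 ± 0.14). Pgd rose against untreated with both (1.97 ± 0.14 and 1.2 ± 0.14), and G6pdx with apigenin (1.08 ± 0.14). Between the flavones Me1, malic enzyme, was lower with apigenin (-0.61 ± 0.08). Me1 also fell with apigenin (-0.44 ± 0.08). The genes called lower with both flavones were Idh1, Idh2 and Nnt, other sources of NADPH. The list medians were 0.94 with apigenin and 0.37 with chrysin.

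Selenium supply genes were called in both directions with apigenin, and those called with chrysin all fell. Of 13 genes of selenocysteine insertion and selenium supply, 3 rose and 3 fell with apigenin, and 0 rose and 3 fell with chrysin. Sepp1, which encodes the selenium carrier selenoprotein P, fell with both (-1.47 ± 0.13 and -1.33 ± 0.13). Sephs2, which makes the selenium donor for selenocysteine, rose with apigenin (0.87 ± 0.13) and fell with chrysin (-0.38 ± 0.13), and the difference between the flavones was 1.25 ± 0.13 (adjusted p = 6.96e-07). Sephs1, a related gene, fell with both (-0.96 ± 0.15 and -0.45 ± 0.15). Lrp8, a receptor for selenoprotein P, rose with apigenin (1.05 ± 0.15) and was higher than with chrysin (0.84 ± 0.15), whereas Sars, the seryl-tRNA synthetase, fell with apigenin (-0.36 ± 0.09) and was lower than with chrysin (-0.33 ± 0.09).

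Of 13 further genes listed as selenoproteins, 1 rose and 6 fell with each flavone, and the list median was -0.4 with apigenin and -0.53 with chrysin. Selenbp1 in this list binds selenium and is not a selenoprotein. It is among the 6 that fell with chrysin (-2.39 ± 0.68), where its mean level was 1.79 and its lowest 0. The gene that rose with both was Txnrd1, cytosolic thioredoxin reductase (1.45 ± 0.13 and 1.32 ± 0.13). Sepw1 fell with both (-0.76 ± 0.09 and -0.53 ± 0.09), Selm fell with both (-0.51 ± 0.12 and -1.09 ± 0.12), Selt fell with apigenin (-0.44 ± 0.09), and Sepn1 fell with chrysin (-0.53 ± 0.12). Between the flavones Selt was lower with apigenin (-0.46 ± 0.09), and Sepn1 and Selm were higher (0.62 ± 0.12 and 0.58 ± 0.12).

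**Figure D4:**
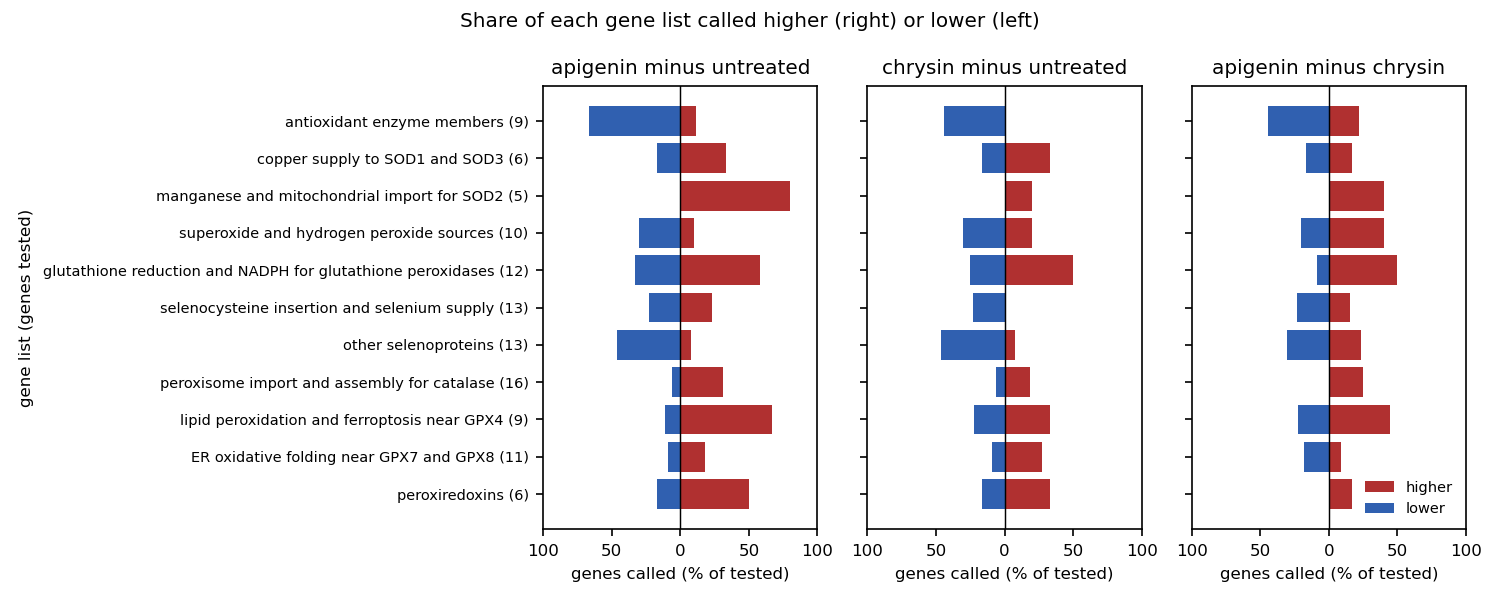
Percentage of the tested genes of each list called higher (right, red) or lower (left, blue) in the 3 comparisons, with the number of genes tested in brackets. Of the 9 antioxidant enzyme genes 6 and 4 were called lower with apigenin and chrysin, where 23.2% and 26.7% of all genes tested were; of the 12 glutathione and NADPH genes 7 and 6 were called higher, where 23% and 26.3% were.

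Sources of superoxide and hydrogen peroxide moved in both directions. Of 10 tested genes 1 rose and 3 fell with apigenin, and 2 rose and 3 fell with chrysin. Nox4, an oxidase that releases hydrogen peroxide, fell with both (-1.32 ± 0.13 and -0.68 ± 0.13) and differed between them (-0.64 ± 0.13, adjusted p = 0.000729). Cybb, the oxidase subunit of phagocytes, fell with both (-1.14 ± 0.33 and -1.72 ± 0.33). Its mean levels were low, at 6.04 untreated, 4.9 with apigenin and 4.33 with chrysin. Of the 6 macrophage and leukocyte markers tested 2 rose with apigenin and 2 fell with chrysin, beside the shares of all genes given above. Mical1, a flavin monooxygenase, fell with both (-0.51 ± 0.12 and -0.71 ± 0.12). Xdh, xanthine dehydrogenase, rose with both (1.93 ± 0.29 and 0.85 ± 0.29) and was higher with apigenin than with chrysin (1.08 ± 0.29).

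Among 16 genes of peroxisome import and assembly, through which catalase reaches its compartment, 5 rose and 1 fell with apigenin, and 3 rose and 1 fell with chrysin. Pex5, the import receptor, rose with apigenin (0.41 ± 0.11), as did Pex26 (1.43 ± 0.27), and Pex6 rose with both (0.66 ± 0.19 and 0.48 ± 0.19). Pex6 and Pex26 take part in recycling that receptor. With chrysin, the peroxisomal transporter Abcd3 rose (0.27 ± 0.1) and Pex2 fell (-0.78 ± 0.15). Pex26, Pex16 and Pex2 were higher with apigenin than with chrysin (1.51 ± 0.27, 1.08 ± 0.36 and 0.53 ± 0.15).

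Around GPX4, 6 of 9 tested genes of lipid peroxidation and ferroptosis rose and 1 fell with apigenin, and 3 rose and 2 fell with chrysin. Ptgs2, cyclooxygenase, rose with both (2.17 ± 0.16 and 3.52 ± 0.16). Acsl4, which supplies peroxidisable lipids, and Nfs1, of iron-sulfur cluster synthesis, rose with apigenin (0.69 ± 0.14 and 0.71 ± 0.13). Tfrc, the transferrin receptor, fell with apigenin (-0.41 ± 0.15) and rose with chrysin (0.67 ± 0.15). Lpcat3, which places polyunsaturated chains in phospholipids, fell with chrysin (-0.49 ± 0.12). Between the flavones Tfrc and Ptgs2 were lower with apigenin (-1.09 ± 0.15 and -1.35 ± 0.16) and Chac1, a glutathione-degrading enzyme, was higher (1.39 ± 0.29).

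Around GPX7 and GPX8, the genes of oxidative folding in the endoplasmic reticulum were mostly not called, with 2 of 11 higher and 1 lower with apigenin and 3 and 1 with chrysin. Ero1l, the oxidase whose hydrogen peroxide these peroxidases use, rose with both (1.03 ± 0.11 and 0.7 ± 0.11), so it differed in direction from Gpx7 in the same libraries. Qsox1, a thiol oxidase, rose with both (0.51 ± 0.11 and 0.34 ± 0.11), Hspa5, a chaperone, rose with chrysin (0.62 ± 0.19), and Vkorc1 fell with both (-0.36 ± 0.14 and -0.68 ± 0.14). P4hb and Pdia3, disulfide isomerases, were lower with apigenin than with chrysin (-0.26 ± 0.07 and -0.27 ± 0.08), and Ero1l was higher (0.33 ± 0.11).

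Peroxiredoxins, the other large family of peroxide reductases, rose in 3 of 6 genes and fell in 1 with apigenin, and rose in 2 and fell in 1 with chrysin. Prdx1 rose by 1.27 ± 0.07 and 0.75 ± 0.07, and was higher with apigenin than with chrysin (0.52 ± 0.07, adjusted p = 1.6e-05). Prdx6 rose with both (0.89 ± 0.1 and 0.72 ± 0.1), and Prdx2 fell with both (-0.36 ± 0.09 and -0.44 ± 0.09).

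Promoters were examined for the antioxidant response element, the site bound by NRF2. RefSeq promoters of 250 bases before to 50 after the start of transcription (GRCm38.p6) were matched by symbol for 8 of the 9 genes, all but Sod3. They are not all alike. Gpx4 had several such promoters and each other gene 1. Of the 250 upstream bases, 250 in Gpx3, 248 in Gpx7 and 250 in some Gpx4 promoters lie inside the mm9 gene model. The counts below cover these 8 genes all the same. The core letters TGACNNNGC, on either strand, were found in a promoter of 1 of these 8 genes, Sod1. They were found in 12.4% of all 32851 promoters of the same length, or 14% of all 27025 genes with a promoter. The AP-1 letters TGANTCA were found in 0 of 8, beside 7.81% of all promoters and 8.97% of all genes. A loose form of the NF-kB motif was found in 7 of 8, beside 50.8% of all promoters and 53.5% of all genes. This form fixes only its leading G bases and trailing C bases and leaves the bases between them open. It can therefore match sequence rich in G and C. The share was not compared with promoters of like base content, so enrichment of NF-kB sites was not tested. The promoters shown are those of Sod1, which holds the antioxidant core and was not called with either flavone, Gpx1, which fell with both, and Cat, which rose with apigenin. Each is the RefSeq upstream sequence, 5′ to 3′ on the gene's strand, placed on mm9 by exact match and ended before the gene model, with the antioxidant core in capitals.
Sod1: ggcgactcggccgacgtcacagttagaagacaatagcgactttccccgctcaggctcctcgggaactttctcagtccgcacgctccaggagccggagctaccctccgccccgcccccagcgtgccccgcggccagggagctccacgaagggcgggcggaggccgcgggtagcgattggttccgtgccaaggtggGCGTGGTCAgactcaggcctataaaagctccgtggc
Gpx1: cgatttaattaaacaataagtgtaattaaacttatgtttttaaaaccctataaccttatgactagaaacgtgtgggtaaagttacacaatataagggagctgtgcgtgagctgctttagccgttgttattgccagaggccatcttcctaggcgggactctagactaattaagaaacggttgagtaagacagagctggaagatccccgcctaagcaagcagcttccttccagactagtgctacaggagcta
Cat: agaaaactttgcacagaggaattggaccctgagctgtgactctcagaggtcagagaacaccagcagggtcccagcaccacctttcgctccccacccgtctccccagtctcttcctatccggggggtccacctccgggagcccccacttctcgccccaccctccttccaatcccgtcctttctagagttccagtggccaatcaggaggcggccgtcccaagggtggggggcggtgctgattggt
They lie at chr16:90220757-90220986 (plus strand), chr9:108241161-108241410 (plus strand) and chr2:103325318-103325560 (minus strand). The Sod1 and Cat stretches adjoin their gene models. The Gpx1 stretch ends at the RefSeq start, which lies upstream of its gene model (from chr9:108241607), and the bases between are not shown. In Sod1 the core lies on the opposite strand, from 56 to 48 bases before the RefSeq start. A match describes the letters only, and its absence from this window says nothing of the factor.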

How the data were processed

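RNA of 12 mouse embryonic fibroblast libraries was sequenced with a stranded mRNA kit, per the labels' protocols. The submitters' processing notes name STAR, HTSeq, DESeq2, FastQC and cutadapt and the build mm9. Their versions, annotation and strand setting: not given in the sources used here. The authors deposited log2 values of a normalized count plus 1, as the design text and the values show. After undoing the log2 step, 99.966% to 100% of values under 500 reads lay within 0.05 reads of a whole multiple of one step per library, from which reads were recovered.

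Groups came from the sample titles. Genes were tested when their normalized count averaged 10 or more, which left 12198. Their deposited log2 values entered limma (version 3.58.1, under R version 4.3.3) as 3 groups over 12 libraries, with trend and robust estimation, two-sided tests and Benjamini-Hochberg adjustment over all genes tested. Every adjusted p comes from limma. The scale understates changes of genes with few reads. Intervals cover 95% and are not adjusted. The members and lists were chosen with earlier results of these data known. Text names all members and, per list and comparison, up to 3 called genes with the smallest p, with further calls of some; Ccs, Idh1, Idh2, Nnt, Sirt3, Map2, Nes and Cd68 were named after their values were seen. A rule naming genes of like pattern applied to members changed by at least 1, of which there were 0. Of the listed genes, 2 selenoprotein symbols and 1 macrophage symbol were not matched and were not used here. Lengths and coordinates came from GENCODE vM1 on NCBIM37 (mm9). Some genes that this rule names are not reported here.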

Additional observations from a re-analysis of the deposited data

Results flagged for a closer look

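Within the groups of 4 libraries, 1 library stood apart from the other 3 past Dixon's 95% critical value in 2 of 27 gene and group combinations, and chance marks about 1 in 20. For Sod2, apigenin replicate 4 was lowest at 8.53, with the others at 8.68 to 8.71. For Sod3, untreated replicate 1 was lowest at 9.86, with the others at 9.97 to 9.99.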

How the results depend on the processing

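Against untreated, the counts of members called with apigenin stayed at 1 higher and 5 to 6 lower in all 24 alternatives, and with chrysin at 3 to 6 lower in 22, while 1 was called higher when the 8 samples were fitted alone, where the reported count is 0. Between the flavones counts were less stable. The reported 2 called higher became 1 with a replicate block, centring on the median, no filter on low values, no trend and robust estimation, the 8 samples alone, and apigenin replicates 2 and 4 only, and ranged from 1 to 3 when each library was left out. The reported 4 called lower became 1 after quantile normalization, 2 with the 8 samples alone, limma-voom or apigenin replicates 2 and 4 only, and 1 to 4 when each library was left out. The cause was not tested. The Gpx1 difference between flavones turned from -0.13 to 0.07 after quantile normalization (0.0663) and with apigenin replicates 2 and 4 only (0.0666).

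No pairing of libraries by replicate number was seen: deviations of same-numbered libraries correlated at -0.1 to 0.1 over 12 pairs, and 1 of 12 was over 0.1. With the replicate block, members called were 1 higher and 6 lower with apigenin, 0 and 3 with chrysin, and 1 and 3 between the flavones. Limma-voom, array weights and the choices of apigenin libraries were added after the data were seen. Depth limits Gpx7 most, at 45 to 382 reads per library.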
